A study of Mus musculus with 217 samples.

Results

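A set of 10 genes of protein folding in the endoplasmic reticulum (ER), *Hspa5*, *Hsp90b1*, *Calr*, *Dnajb11*, *Sdf2l1*, *Pdia4*, *Pdia6*, *Manf*, *Creld2* and *Xbp1*, was followed in the striatum and cortex of an inducible mouse model of Huntington's disease. The genes were taken by name with earlier results of these data known, so that counts of called members do not come from an independent choice. All 10 were found among the 54532 genes of the count tables. RNA-seq libraries of 217 tissue samples were analyzed, 50 of striatum and 50 of cortex at 6 months of age and 57 and 60 at 12 months. Every mouse was on a C57BL/6 background (C57BL/6J in the study's methods) and carried the beta-actin-LacIR transgene, in which the beta-actin promoter drives the Lac repressor in the whole body. Wild-type (WT) mice were Hdh(LacO-+/+):beta-actin-LacIR tg, and mutant mice, Hdh(LacO-140Q/+):beta-actin-LacIR tg, held 1 copy of a CAG-expanded *Htt* allele with Lac operators. The drug IPTG releases the repressor, so that LacQ140 mice on IPTG from embryonic day 5 onward expressed the mutant allele. LacQ140_A mice never had IPTG and had the allele repressed from conception, while IPTG was withdrawn at 2 months of age in LacQ140_2M and at 8 months in LacQ140_8M, a group examined at 12 months only. Repression lowered the mutant allele only in part, and the paper calls the lowering moderate. WT mice without IPTG (WT) and with lifelong IPTG (WT + IPTG) were the controls. Each group held 5 females and 5 males, except for WT, LacQ140 and LacQ140_8M in the 12-month striatum, which held 4 females and 5 males.

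Proteins that enter the secretory pathway fold in the ER with the help of chaperones, and their number is adjusted to the load of unfolded proteins. When that load rises, sensors in the ER membrane start the unfolded protein response, in which the factors ATF6 and XBP1 bind ER stress response elements in the promoters of chaperone genes. *Hspa5* encodes BiP, the main ATP-driven chaperone of the ER lumen, and *Hsp90b1* encodes GRP94. *Calr* encodes calreticulin, a lectin chaperone that also stores calcium. *Dnajb11* and *Sdf2l1* encode partners of BiP, and *Pdia4* and *Pdia6* encode protein disulfide isomerases, which form and rearrange disulfide bonds. *Manf* and *Creld2* encode small ER proteins that are secreted under stress. *Xbp1* is the transcription factor itself, and its counts do not separate the spliced from the unspliced mRNA.

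The stretches that hold ER stress response elements are shown because 6 of the members hold one and because members varied together. The other members followed *Hspa5* in the striatum at both ages and in the 6-month cortex, but not all did in the 12-month cortex. In the promoter set used here, from RefSeq annotation of GRCm38.p6, a window of 300 bases (250 before and 50 after the annotated start) was found by symbol for 9 members. For *Manf* none was found in that set, so its promoter was not searched. The window of *Hspa5* (chromosome 2, plus strand) is given by its 250 upstream bases, chr2:34771840-34772089, with the element in capitals.
Hspa5: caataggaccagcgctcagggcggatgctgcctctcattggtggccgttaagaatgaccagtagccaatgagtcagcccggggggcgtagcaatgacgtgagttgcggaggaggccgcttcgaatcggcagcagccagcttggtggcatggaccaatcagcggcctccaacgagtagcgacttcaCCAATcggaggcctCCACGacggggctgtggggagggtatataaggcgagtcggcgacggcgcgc
The element, CCAAT and CCACG with 9 bases of any kind between them, was searched on both strands and was found in 5 of 9 member windows, against 39 (0.119%) of 32851 windows of all genes. Counted from the annotated start, it lay at -65 to -47 in *Hspa5*, at -98 to -80 in *Pdia6*, at -126 to -108 in *Creld2* and at -162 to -144 in *Calr*, and *Hsp90b1* had 2 copies, at -212 to -194 and at -107 to -89. The matches of the other members are written below 5′ to 3′ on the strand of the gene, with 5 bases on each side. Capitals mark the fixed letters, which read CGTGG and ATTGG where the element lay on the opposite strand.
Hsp90b1, chr10:86705633-86705661, minus strand: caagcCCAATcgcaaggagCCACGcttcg
Hsp90b1, chr10:86705528-86705556, minus strand: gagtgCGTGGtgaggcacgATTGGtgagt
Calr, chr8:84847070-84847098, minus strand: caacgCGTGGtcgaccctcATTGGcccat
Pdia6, chr12:17266486-17266514, plus strand: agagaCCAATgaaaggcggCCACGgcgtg
Creld2, chr15:88819515-88819543, plus strand: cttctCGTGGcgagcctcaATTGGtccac
Dnajb11, chr16:22857847-22857867, plus strand: cggcgATTGGcCCACGcctgg
The last of these is the shorter element, ATTGG and CCACG with 1 base between them, which lay at 8 to 18 in *Dnajb11* and was held by 12 windows of all genes (0.0365%). The letters TGACGTG, the core that XBP1 binds, were found at -157 to -151 in *Hspa5* and in 661 windows of all genes (2.01%). None of these 3 sets of letters was in the windows of *Pdia4*, *Sdf2l1* or *Xbp1*.

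**Figure D1:**
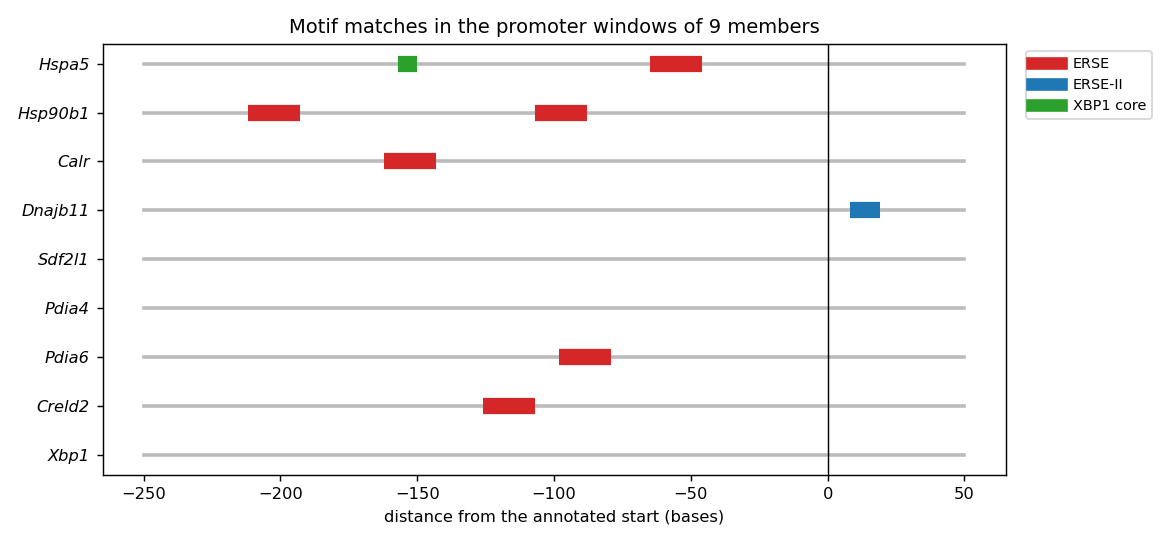
Promoter windows of the 9 members found in the promoter set used, by distance in bases from the annotated start (x axis). Colored blocks are matches to the ER stress response element (ERSE), its shorter form (ERSE-II) and the XBP1 core. Matches stand in 6 windows, with 2 in *Hsp90b1* and 2 in *Hspa5*, and 3 windows hold none.

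Library totals lay between 33292014 and 68038785 counts, and the smallest count of any member in any library was 161 (*Sdf2l1* in the 12-month striatum). Total *Htt*, in which the alleles are not separated, was 102 ± 10.9 CPM (counts-per-million values scaled by the trimmed mean of M-values, mean ± SD, n = 10) in LacQ140 and 87.7 ± 8.32 in LacQ140_A of the 6-month striatum, against 111 ± 11.5 in WT + IPTG. The log2 difference between LacQ140_A and WT was -0.40 in the 6-month striatum (adjusted p = 0.00023), -0.52 in the 12-month striatum (adjusted p = 6.5e-08), -0.60 in the 6-month cortex (adjusted p = 3.6e-07) and -0.72 in the 12-month cortex (adjusted p = 0.0041). The 6 spiny neuron markers summed to between 2746 and 6499 CPM in every striatal library and to between 109 and 329 CPM in every cortical one. The 6- and 12-month libraries stand in separate tables and carry different batch labels, so that age and batch cannot be told apart. Cortical libraries of 12 months stood apart: the slope of log2 CPM on log2 transcript length was -0.48 to -0.03 there, against 0.08 to 0.38 in the 6-month striatum, 0.13 to 0.44 in the 12-month striatum and 0.00 to 0.46 in the 6-month cortex.

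In WT mice of 6 months, *Calr* was the most abundant member per transcript length in the striatum, at 310.8 ± 37.3 TPM (transcripts-per-million values, n = 10), followed by *Hsp90b1* at 207 ± 23.1 and *Hspa5* at 170 ± 24.6. *Pdia6* (103 ± 13.3) and *Xbp1* (99.5 ± 11.2) did not differ beyond their spread, nor did *Manf* (43.9 ± 3.53) and *Dnajb11* (41.8 ± 3.88). *Pdia4* (34.6 ± 4.17), *Creld2* (29.8 ± 3.15) and *Sdf2l1* (20.1 ± 2.36) were the least abundant. The same 5 genes led in the other sets, and *Hspa5* (105 ± 17.6 TPM) stood above *Hsp90b1* (86.6 ± 18.6) only in the 12-month cortex, by less than the SD of *Hsp90b1*. *Sdf2l1*, the least abundant member of the 6-month striatum, ranked 7 there with 26.4 ± 5.67 TPM.

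A first comparison asked what IPTG alone did in WT mice. A gene is called here when its p from edgeR's quasi-likelihood test, adjusted by Benjamini-Hochberg over all genes, is under 0.05 and its ratio between the groups, or the inverse, is at least 1.2 (the fold bound). In the 6-month striatum *Hspa5* stood at 237.4, 272.1 and 372.7 CPM (lowest, median and highest library) in WT and at 269.9, 333.0 and 375.6 CPM in WT + IPTG. In the 12-month striatum the values were 220.6, 233.5 and 350.6 CPM in WT and 211.2, 363.7 and 493.1 CPM in WT + IPTG. The groups overlapped at both ages, and the WT + IPTG mice of 12 months spread most, with male M5 lowest and female F4 highest. The log2 difference of *Hspa5* was 0.46 in the older mice (SE 0.113, adjusted p = 0.0497). In the younger mice it was 0.17 (SE 0.0728, adjusted p = 0.406). At 12 months *Sdf2l1* lay between 6.92 and 10.9 CPM in WT (median 7.67) and between 6.12 and 19.2 CPM in WT + IPTG (median 12.3), a log2 difference of 0.61 (SE 0.132, adjusted p = 0.0303). *Pdia4* rose likewise, from 32.9, 36.8 and 45.5 CPM to 29.3, 53.1 and 70.4 CPM (log2 difference 0.45, SE 0.108, adjusted p = 0.0472).

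Thus 3 of 10 members, the BiP gene, a partner of BiP and a disulfide isomerase, were called higher with IPTG in the 12-month striatum, where 0.136% of all genes were called higher. The count was 0 with only the 2 groups in the fit, 0 with the replicate block, 1 with sex as a covariate and 1 with the length slope as a covariate. No member was called in the 6-month striatum (0.584% of genes called), in the 6-month cortex (0.609%) or in the 12-month cortex (0%). By DESeq2 the count was 0 in these 3 sets as well, and at an unadjusted p under 0.05 the members numbered 3, 1 and 7. With the length slope as a covariate, an alternative added after the data were seen, 6 members were called in the 12-month cortex. In the 12-month cortex *Sdf2l1* was higher by a log2 of 0.66 (SE 0.153, adjusted p = 0.168) and *Pdia4* by 0.44 (SE 0.103, adjusted p = 0.168). The median over the members was 0.24 in the 12-month striatum and 0.36 in the 12-month cortex, against 0.08 and 0.10 at 6 months and 0.00 over all genes. Within the 12-month striatum 4 of 10 cytosolic heat shock genes were called higher too, among them *Hspa1b* (log2 1.73, adjusted p = 0.013), which encodes an inducible chaperone of the cytosol. None of 17 further ER folding genes, 10 genes of ER-associated degradation and 15 sensors and factors of the unfolded protein response was called there by edgeR, and 4, 5 and 4 had an unadjusted p under 0.05. The count of 3 rested on single libraries, with 0 to 5 members called when 1 was left out and 13 of 19 such fits moving it beyond 1.5 times. It was 0 when WT F1, F2, F3, F5 or M1 or any WT + IPTG female was left out, 1 when WT M2 or WT + IPTG M1 was, and 5 when the WT + IPTG male M5 was. The 5 hemoglobin and erythroid markers were higher with a median log2 of 0.87 (0 called, 5 at an unadjusted p under 0.05), with summed levels of 145.9 to 382.9 CPM in WT and 276.3 to 1962 CPM in WT + IPTG, the highest in mouse M1. The part of blood in the result was not tested beyond leaving out that library.

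The spread of the older WT + IPTG mice followed sex, a split that was noticed in these values and then tested in the same mice. In the 12-month striatum *Hspa5* lay at 357.7, 429.0 and 493.1 CPM in the 5 WT + IPTG females and at 211.2, 263.5 and 369.6 CPM in the 5 males. The WT mice without IPTG lay at 220.6, 227.0 and 234.7 CPM (4 females) and at 229.7, 285.1 and 350.6 CPM (5 males). Every WT + IPTG female thus stood above every WT female, whereas the males of both groups covered much the same range. *Sdf2l1* lay at 13.1, 15.8 and 19.2 CPM in WT + IPTG females and at 6.12, 9.73 and 11.5 CPM in males, and was the one member of this set whose sexes did not overlap in WT + IPTG (3.48% of all genes). In a fit with a mean for each group and sex, 9 of 10 members were called higher with IPTG in females, where 4.78% of all genes were called higher. In males edgeR called 0 members (0% of all genes called higher), 0 had an unadjusted p under 0.05, and DESeq2 was not run. The log2 difference of *Hspa5* was 0.93 in females (SE 0.136, adjusted p = 7.4e-06) and -0.02 in males (95% interval -0.27 to 0.22).

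The difference of the IPTG effect between the sexes was called for 4 members, where 4.38% of all genes were called. It was 0.95 for *Hspa5* (SE 0.185, adjusted p = 0.00198), 0.90 for *Sdf2l1* (SE 0.213, adjusted p = 0.0077), 0.82 for *Pdia4* (SE 0.179, adjusted p = 0.00434) and 0.62 for *Manf* (SE 0.155, adjusted p = 0.0124). Each of these was called with any of the 19 libraries left out, and 7 members were called without the WT + IPTG male M1. Of the 10 cytosolic heat shock genes 7 were called for the same difference. Blood marker sums were 276.3 to 402.9 CPM in the WT + IPTG females and 279.2 to 1962 CPM in the males, and their part was not tested. In the 12-month cortex *Hspa5* lay at 301.2, 328.8 and 436.8 CPM in WT + IPTG females and at 179.7, 251.3 and 266.3 CPM in males. The sexes did not overlap there for *Hspa5*, *Sdf2l1*, *Pdia4* and *Manf*, against 3.03% of all genes. With IPTG 6 members were called higher in females (0.0609% of all genes) and 0 in males (0%), with 7 and 0 at an unadjusted p under 0.05. The cortical difference between the sexes was 0.72 for *Hspa5* (95% interval 0.36 to 1.07, adjusted p = 0.268) and 1.02 for *Sdf2l1* (95% interval 0.52 to 1.53, adjusted p = 0.268), and edgeR called no member (0.0058% of all genes), with 8 at an unadjusted p under 0.05. At 6 months no member was called for it in striatum (0.0922%) or cortex (0.025%), with 0 and 2 at an unadjusted p under 0.05.

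**Figure D2:**
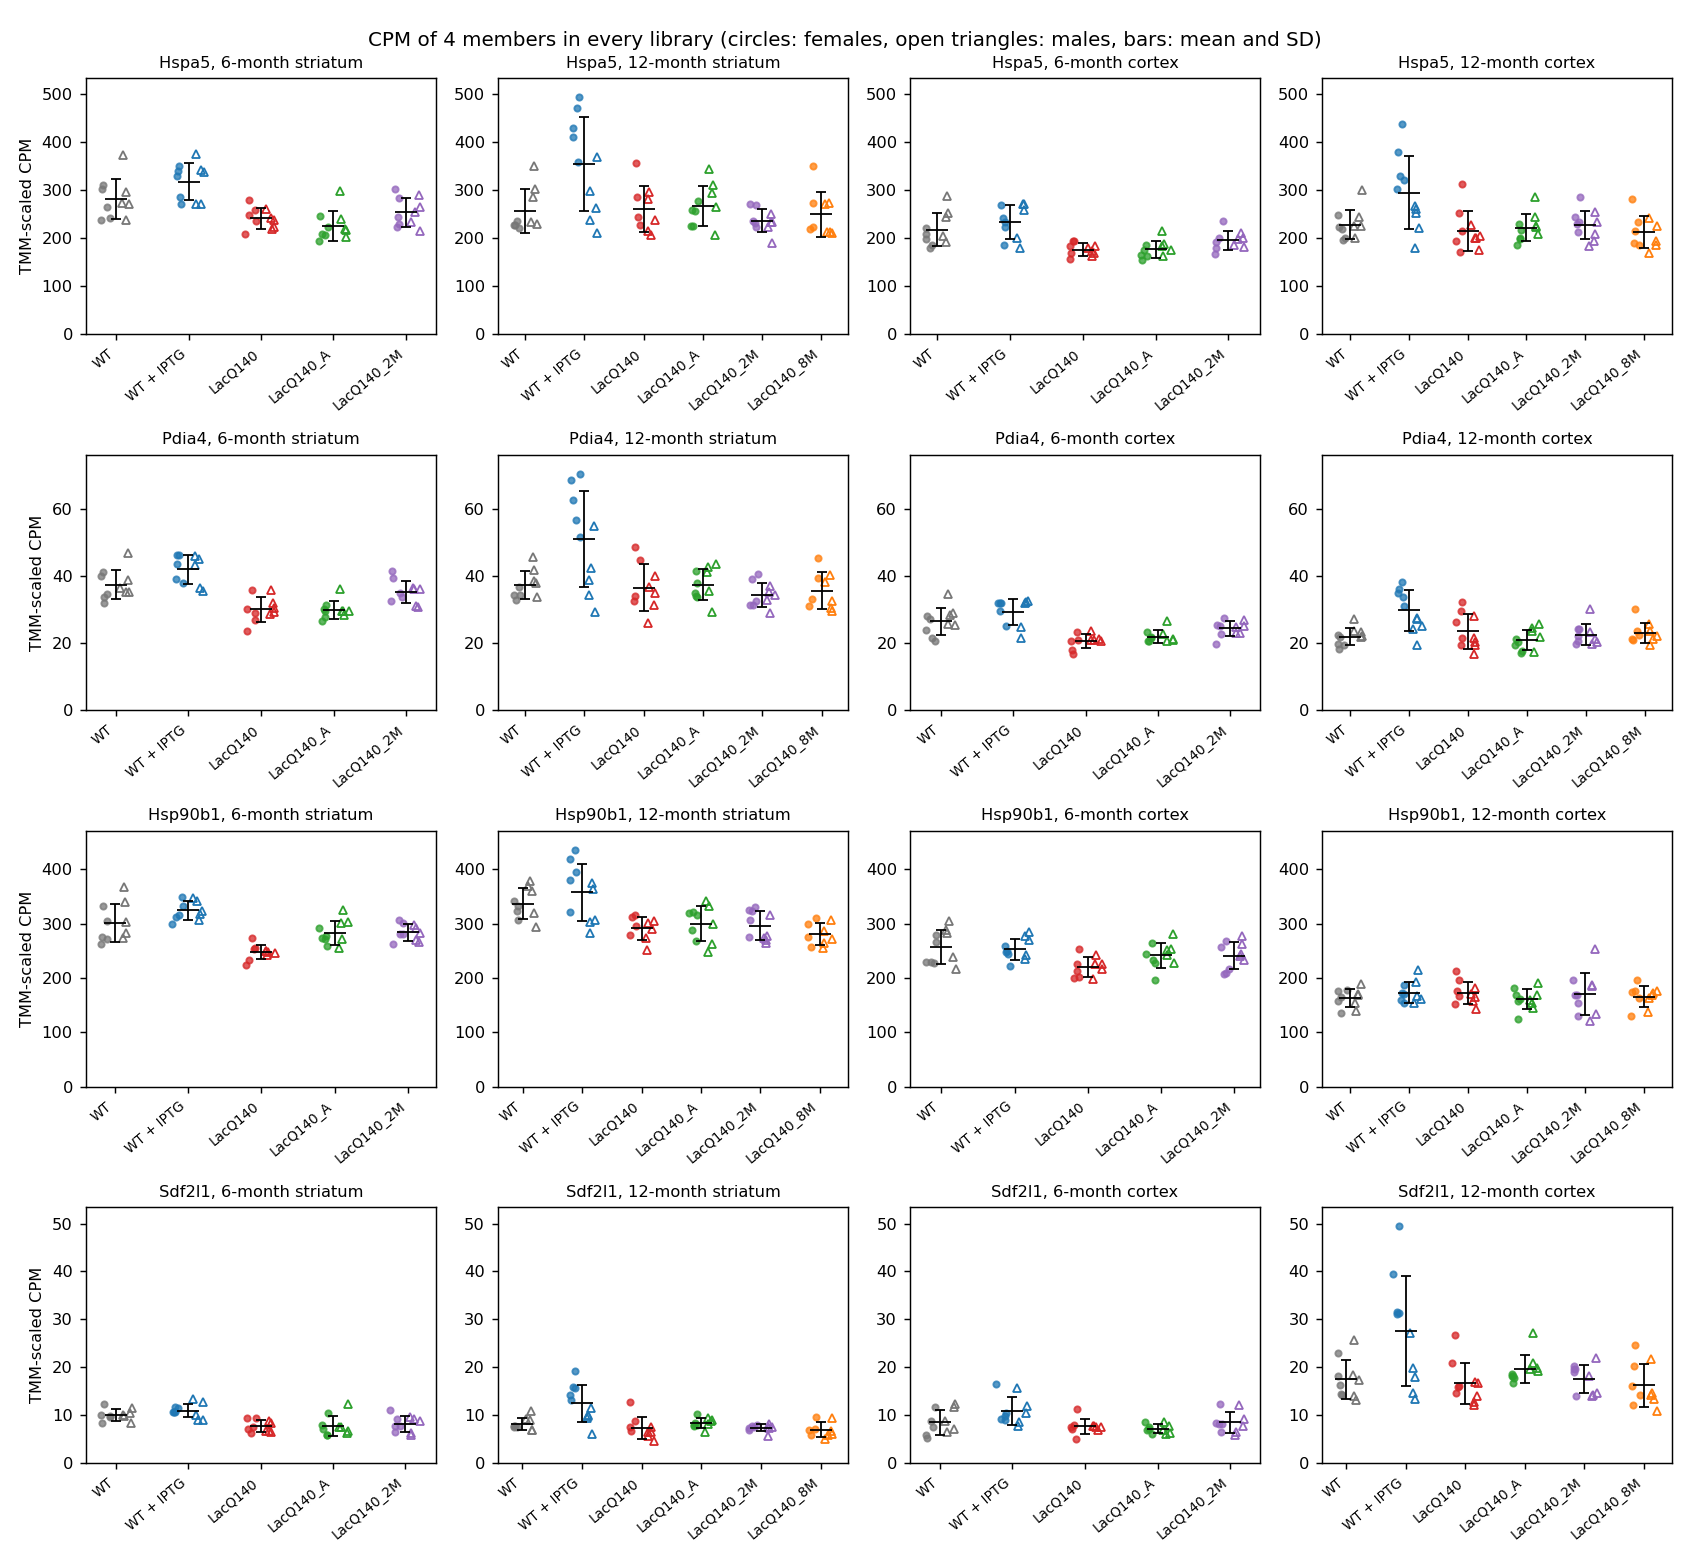
CPM of *Hspa5*, *Pdia4*, *Hsp90b1* and *Sdf2l1* (y axes, linear from 0) in every library of the 4 sets by group (x axes); circles are females, open triangles males and black bars the mean and SD of the group. The 5 WT + IPTG females of 12 months reach 493.1 CPM for *Hspa5* in the striatum, while *Hsp90b1* of LacQ140 in the 6-month striatum lies below every WT + IPTG library.

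The main comparison set LacQ140 against WT + IPTG, both on IPTG throughout, and so asked what the expressed mutant allele did. In the 6-month striatum the members were lower together: 8 of 10 were called, all lower, where 3.96% of all genes were called lower. The median log2 difference over the members was -0.35 against 0.00 over all genes. Among the further ER folding genes given below, only *Cdnf* was called, and it was higher. The *Hsp90b1* levels were 298.8, 320.7 and 348.9 CPM in WT + IPTG and 224.6, 248.8 and 273.1 CPM in LacQ140. *Hspa5* fell from 269.9, 333.0 and 375.6 CPM to 208.5, 238.8 and 279.8 CPM. *Pdia4* fell from 35.5, 43.4 and 46.4 CPM to 23.6, 29.8 and 35.8 CPM. No LacQ140 library reached the lowest WT + IPTG library for *Hsp90b1*, *Pdia6* or *Xbp1*, a separation that 1.15% of all genes showed, whereas *Hspa5* and *Pdia4* overlapped at the edges.

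The log2 difference was -0.39 for *Hsp90b1* (SE 0.0489, adjusted p = 1.85e-08), -0.40 for *Hspa5* (SE 0.0729, adjusted p = 6.36e-05) and -0.29 for *Calr* (SE 0.0585, adjusted p = 0.000282). Both disulfide isomerases fell, *Pdia4* by 28.1% (adjusted p = 4.04e-07) and *Pdia6* by 23.1% (adjusted p = 2.96e-06). Of the partners of BiP, *Sdf2l1* fell by 29.6% in the fit (adjusted p = 0.000497), with mean levels of 10.95 ± 1.40 CPM in WT + IPTG and 7.71 ± 1.21 CPM in LacQ140 (SD, n = 10 each), and *Dnajb11* differed by -0.13 (95% interval -0.23 to -0.03, adjusted p = 0.0846), which was not called. Of the secreted proteins, *Creld2* had a log2 difference of -0.29 (adjusted p = 0.00281), while *Manf* differed by -0.22 (95% interval -0.35 to -0.08, adjusted p = 0.0292) and missed the fold bound. For *Xbp1* it was -0.32 (adjusted p = 2.02e-05). All 10 LacQ140 mice stood below the WT + IPTG median for the 8 called members. The count stayed at 8 with each of the 20 libraries left out in turn.

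In bulk tissue, fewer cells of a type and less RNA per cell cannot be told apart. All 6 spiny neuron markers were called lower in the same comparison, with a median log2 difference of -0.36 and summed levels of 3455 to 5259 CPM in WT + IPTG and 3007 to 4020 CPM in LacQ140. Of 5 oligodendrocyte markers 3 were called lower, with sums of 11977 to 15526 CPM and 9171 to 11463 CPM, as were 3 of 5 microglial markers, with sums of 327 to 401 CPM and 281 to 329 CPM. The part of these cells in the chaperone result was not tested.

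**Figure D3:**
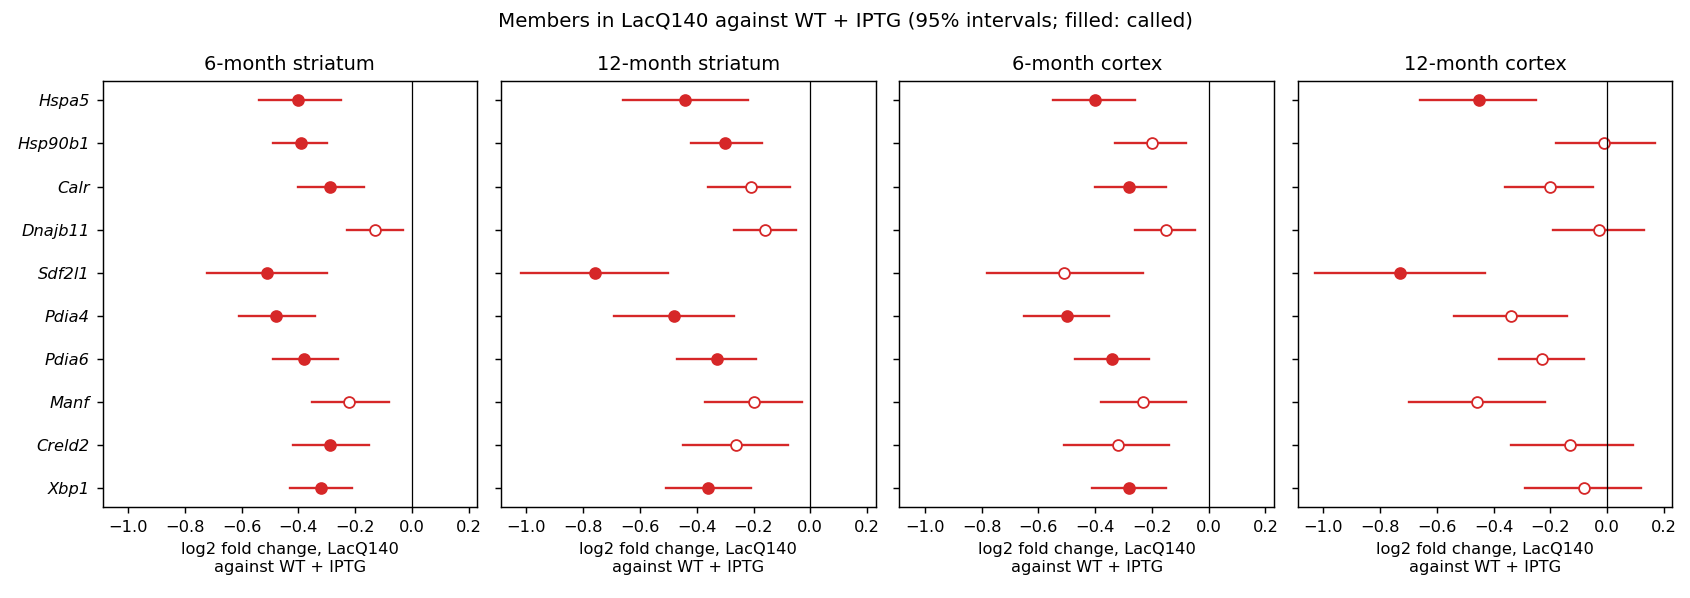
Log2 fold change of LacQ140 against WT + IPTG for each member (x axis) in the 4 sets, with 95% intervals (1.96 SE); filled points were called and open points were not. Every point lies at or below 0, with 8 filled in the 6-month striatum, 6 in the 12-month striatum, 5 in the 6-month cortex and 2 in the 12-month cortex.

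In the 12-month striatum 6 members were called lower, where 4.86% of all genes were, and the median was -0.31. *Sdf2l1* differed most, from 6.12, 12.3 and 19.2 CPM in WT + IPTG to 4.51, 6.68 and 12.7 CPM in LacQ140 (log2 difference -0.76, SE 0.132, adjusted p = 8.35e-06). *Pdia4* went from 29.3, 53.1 and 70.4 CPM to between 26.0 and 48.5 CPM (log2 difference -0.48, SE 0.107, adjusted p = 0.000589). *Hspa5* went from 211.2, 363.7 and 493.1 CPM to 207.1, 243.4 and 356.5 CPM (-0.44, SE 0.113, adjusted p = 0.00322). The groups overlapped for every member at this age, and mouse M5 was the lowest of the WT + IPTG mice for all 10. *Hsp90b1* (-0.30), *Pdia6* (-0.33) and *Xbp1* (-0.36) fell as well, with adjusted p of 0.000303, 0.000314 and 0.000325. *Calr* (-0.21, adjusted p = 0.0387) and *Dnajb11* (-0.16, adjusted p = 0.0421) missed the fold bound, and *Manf* (-0.20, adjusted p = 0.137) and *Creld2* (-0.26, adjusted p = 0.0551) missed the threshold. Leaving out 1 library gave 5 to 8 members. All 6 spiny neuron markers were again called lower (median -0.80), and so were the 5 blood markers (median -1.06, sums of 276.3 to 1962 CPM in WT + IPTG and 107.1 to 454.7 CPM in LacQ140), and their part in the result was not tested. Within females 7 members were called lower (4.32% of all genes) and within males 2 (4.2%), *Sdf2l1* and *Pdia6*. The log2 difference of *Hspa5* was -0.64 in females (adjusted p = 0.00059) and -0.16 in males (95% interval -0.40 to 0.09, adjusted p = 0.61).

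In the 6-month cortex 5 members were called lower, *Hspa5*, *Calr*, *Pdia4*, *Pdia6* and *Xbp1*, where 0.503% of all genes were called lower. *Hspa5* lay at 180.2, 237.1 and 270.6 CPM in WT + IPTG and at 156.6, 175.9 and 193.4 CPM in LacQ140 (log2 difference -0.40, SE 0.075, adjusted p = 0.00205). *Pdia4* lay at 21.6, 31.8 and 32.6 CPM and at 16.8, 20.9 and 23.7 CPM (-0.50, SE 0.0762, adjusted p = 0.000161). All 10 LacQ140 mice were below the WT + IPTG median for both, although the ranges overlapped. *Sdf2l1* differed by -0.51 (95% interval -0.78 to -0.23, adjusted p = 0.0589), *Creld2* by -0.32 (adjusted p = 0.0748) and *Hsp90b1* by -0.20 (adjusted p = 0.12), and none of these was called. The count went to 3 without LacQ140 F2 or without WT + IPTG F2, M2 or M3, and to 7 at most. In the 12-month cortex 2 members were called, where 0.0667% of all genes were called lower, and the count was 1 with the replicate block, 3 with only the 2 groups in the fit and 4 with the length slope as a covariate. *Sdf2l1* lay at 13.3, 29.2 and 49.4 CPM in WT + IPTG and at 12.0, 15.9 and 26.7 CPM in LacQ140 (-0.73, SE 0.153, adjusted p = 0.0236). *Hspa5* lay at 179.7, 283.8 and 436.8 CPM and at 171.8, 202.7 and 312.1 CPM (-0.45, SE 0.103, adjusted p = 0.0428). *Manf* differed by -0.46 (95% interval -0.70 to -0.22, adjusted p = 0.121), *Hsp90b1* by -0.01 (95% interval -0.18 to 0.17) and *Dnajb11* by -0.03 (95% interval -0.19 to 0.13). This count fell to 0 without LacQ140 F1, F5, M1, M2 or M3 or without WT + IPTG F4 or F5, to 1 without LacQ140 F4, M4 or M5 or WT + IPTG F1, F2, F3 or M1, and was 3 at most. The 5 blood markers differed by a median of -0.81 (0 called, 5 at an unadjusted p under 0.05), with sums of 851.5 to 7020 CPM in WT + IPTG and 299.3 to 2089 CPM in LacQ140, and their part was not tested. Within females 3 members were called lower (0.0696% of all genes), *Hspa5*, *Sdf2l1* and *Manf*, and within males 0 (0%), with 6 and 1 at an unadjusted p under 0.05. In the 6-month striatum the counts were 5 in females (3.2%) and 8 in males (1.64%), and in the 6-month cortex 1 (0.0806%) and 0 (0.0528%), with 8 and 10 at an unadjusted p under 0.05. The difference between the sexes in the effect of LacQ140 was called by edgeR for no member in the 6-month striatum (0% of all genes), the 12-month striatum (0.00565%), the 6-month cortex (0%) or the 12-month cortex (0%), with 0, 3, 0 and 3 at an unadjusted p under 0.05. DESeq2 was not run by sex.

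The size of the difference depended on which WT mice stood as control, a choice added after the data were seen. Against WT without IPTG, LacQ140 had 5 members called lower in the 6-month striatum, *Hsp90b1* (-0.28), *Sdf2l1* (-0.39), *Pdia4* (-0.31), *Pdia6* (-0.29) and *Creld2* (-0.26), where 3.23% of all genes were called lower. In the 6-month cortex *Hspa5* (-0.30), *Pdia4* (-0.35) and *Pdia6* (-0.33) were called lower, against 1.78% of all genes. At 12 months edgeR called none in the striatum (4.15% of all genes called lower) or the cortex (0.0609%), where 1 and 2 members had an unadjusted p under 0.05 and DESeq2 was not run. The member medians were -0.04 and 0.03, and *Hspa5* stood at 0.02 in the striatum (adjusted p = 1.0). Against the mean of both WT groups, 7, 1, 3 and 0 members were called in the 6-month striatum, the 12-month striatum, the 6-month cortex and the 12-month cortex, where 3.75%, 4.58%, 0.878% and 0.101% of all genes were called lower. At an unadjusted p under 0.05 these were 10, 6, 10 and 4 members. Members were thus called lower against each of the controls at 6 months, whereas at 12 months none was called against WT. These comparisons share the LacQ140 libraries, and those of WT and WT + IPTG are shared with the IPTG comparison above.

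**Figure D4:**
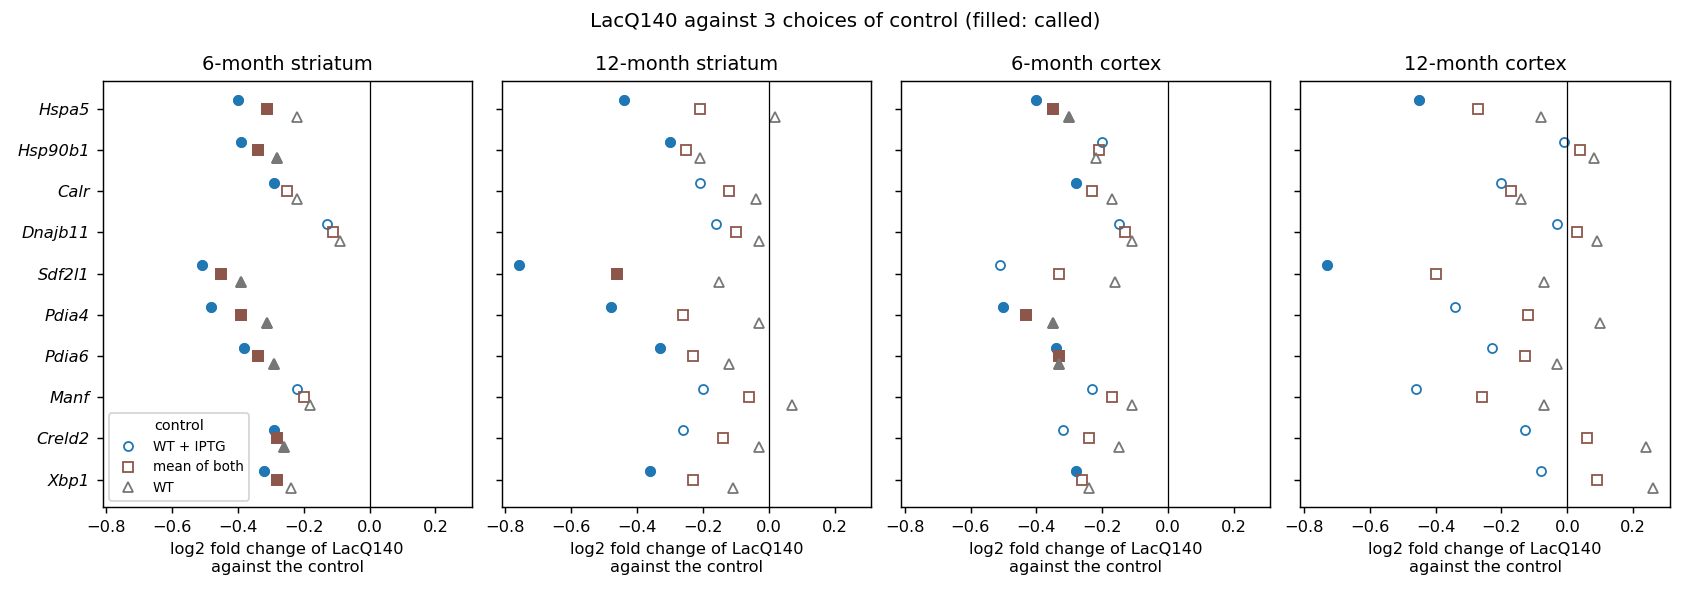
Log2 fold change of LacQ140 for each member (x axis) in the 4 sets against WT + IPTG (circles), the mean of both WT groups (squares) and WT (triangles); filled symbols were called. The 3 controls give 8, 7 and 5 called members in the 6-month striatum, but 6, 1 and 0 in the 12-month striatum.

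Whether lowering of mutant *Htt* moved the chaperones was read from LacQ140_A, LacQ140_2M and LacQ140_8M, each against LacQ140. Mean total *Htt* was lower than in LacQ140 in all 10 of these comparisons. In LacQ140_8M of the 12-month striatum the difference was far within the spread, at 110.9 ± 8.15 CPM against 111.0 ± 10.9 CPM (SD, n = 9 each). No clear fall of total *Htt* was thus seen there. The counts do not separate the alleles, and the paper reports less soluble mutant protein in the striatum of all lowered groups. LacQ140 mice received IPTG throughout, whereas LacQ140_A never had it and LacQ140_2M and LacQ140_8M had it withdrawn, so that lowering of the allele and absence of the drug cannot be told apart in these comparisons. No member was called by edgeR or by DESeq2 in any of the 10 such comparisons. The share of all genes called was 1.88%, 0.91%, 0.00834% and 0.0435% for LacQ140_A in the 6-month striatum, the 12-month striatum, the 6-month cortex and the 12-month cortex. It was 1.26%, 0.608%, 0% and 0.0841% for LacQ140_2M in the same order, and 0.00565% and 0% for LacQ140_8M in the 12-month striatum and cortex. At an unadjusted p under 0.05 the members numbered 2, 0, 1 and 0 for LacQ140_A, 4, 1, 4 and 0 for LacQ140_2M, and 1 and 0 for LacQ140_8M. In the 6-month striatum *Hspa5* lay at 208.5, 238.8 and 279.8 CPM in LacQ140, at 193.3, 218.5 and 298.3 CPM in LacQ140_A and at 215.6, 248.8 and 301.4 CPM in LacQ140_2M, and the 3 groups overlapped over most of their range. *Hspa5* differed by -0.10 in LacQ140_A (95% interval -0.24 to 0.04) and by 0.07 in LacQ140_2M (95% interval -0.07 to 0.22). *Hsp90b1* was the exception at that age, with 255.2, 276.1 and 325.5 CPM in LacQ140_A and 261.6, 281.7 and 306.2 CPM in LacQ140_2M against 224.6, 248.8 and 273.1 CPM in LacQ140. It was higher by a log2 of 0.19 (adjusted p = 0.0148) and 0.20 (adjusted p = 0.0163), past the threshold on p and short of the fold bound. *Pdia4* in LacQ140_2M was higher by 0.22 (95% interval 0.09 to 0.36, adjusted p = 0.076). At 12 months the striatal *Hspa5* values were 206.8, 261.3 and 343.5 CPM in LacQ140_A, 190.0, 234.4 and 270.9 CPM in LacQ140_2M and 210.9, 223.6 and 351.0 CPM in LacQ140_8M, and the medians over the members were 0.05, -0.08 and -0.09.

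Where the mutant allele had been partly repressed from conception without IPTG, LacQ140_A could be set against WT, which had no IPTG either. In the 6-month striatum 4 members were called lower, *Hspa5* (-0.32, adjusted p = 0.0132), *Pdia4* (-0.33, adjusted p = 0.00515), *Manf* (-0.33, adjusted p = 0.00654) and *Creld2* (-0.27, adjusted p = 0.0335), where 0.48% of all genes were called lower. *Manf* lay at 36.1, 43.4 and 51.7 CPM in WT and at 29.96, 33.9 and 47.2 CPM in LacQ140_A, and 9 of those 10 mice were below the WT median. The count was 2 without WT M3, the mouse with the highest *Hspa5* of its group, and with only the 2 groups in the fit, and 5 at most. *Creld2* was not called in 10 of the 20 fits with 1 library left out (adjusted p up to 0.10), those without LacQ140_A F2, F3, M1, M2, M3 or M4 or WT F2, M2, M3 or M4. In the 6-month cortex only *Hspa5* was called (-0.30, adjusted p = 0.0487, against 0.275% of all genes called lower). The count was 0 with only the 2 groups in the fit or with the replicate block and 2 with DESeq2 or filterByExpr, and each of the 20 fits with 1 library left out changed that count. It became 4 without WT F4, 3 without WT F1 or LacQ140_A M5, 2 without WT F5 and 0 without any other library. In the 12-month sets no member was called (3.15% of all genes in the striatum and 0.0174% in the cortex), with 1 and 0 members at an unadjusted p under 0.05 and 0 by DESeq2. In LacQ140_2M against WT, a comparison added after the data were seen, *Hspa5* differed by -0.15 in the 6-month striatum (adjusted p = 0.42).

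The effect of LacQ140 was then compared between tissues of the same mice and between ages. No member was called for a difference between striatum and cortex at 6 months (1.12% of genes called) or at 12 months (2.8%), nor for a difference between ages in striatum (2.07%) or cortex (0.00268%), with 1, 3, 0 and 0 members at an unadjusted p under 0.05 by edgeR. For *Hspa5* the difference between tissues was -0.01 at 6 months (95% interval -0.13 to 0.12) and 0.04 at 12 months (95% interval -0.13 to 0.21). *Hsp90b1* differed by -0.20 (95% interval -0.34 to -0.06, adjusted p = 0.207) and -0.27 (95% interval -0.50 to -0.05, adjusted p = 0.271), and by 0.21 between ages in cortex (95% interval -0.01 to 0.43, adjusted p = 0.802). Averaged over all groups of a set, sex gave no called member in any of the 4 sets (0.279%, 0.218%, 0.192% and 0.154% of genes called), with 2, 5, 4 and 4 members at an unadjusted p under 0.05. The effect of IPTG in the 12-month striatum was called as different by sex for 4 members, as given above. In the 12-month cortex no member was called for that difference. DESeq2 was not run for these differences.

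In WT mice of 6 months, 4 members were called higher in striatum than in cortex, where 28.6% of all genes were called in either direction. They were *Creld2* (log2 difference 0.59, adjusted p = 4.03e-13), *Pdia4* (0.48, adjusted p = 5.13e-13), *Calr* (0.39, adjusted p = 8.5e-13) and *Hspa5* (0.35, adjusted p = 2.29e-09). At 12 months *Pdia4* (0.59) and *Creld2* (0.55) were called higher again, as was *Hsp90b1* (0.88), and *Manf* (-1.30) and *Sdf2l1* (-1.20) were called lower in striatum, against 44.2% of all genes called in either direction. The counts at both ages lie near these shares and are not read as particular to the members. *Manf* stood at 36.5 ± 4.04 CPM in WT cortex at 6 months and at 81.4 ± 15.2 CPM at 12 months. The length slope of the WT libraries was 0.21 to 0.36 in the 12-month striatum and -0.43 to -0.11 in the 12-month cortex, and its part in these 12-month differences was not tested.

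Between mice of a group the members rose and fell together. After the group mean of log2 CPM was removed, *Hspa5* correlated with all 9 other members in the 6-month striatum (Pearson r between 0.63 and 0.81, n = 50) and in the 12-month striatum (0.73 to 0.95, n = 57), each with an adjusted p of 1.2e-05, from 1e-05, the smallest that 100000 permutations within groups can give. With *Pdia4* in the 12-month striatum r was 0.95 (Spearman's rho 0.95, and 0.94 without the 2 mice farthest from the median). In the 6-month cortex r ran from 0.37 with *Sdf2l1* (rho 0.32, 0.28 without 2 mice, adjusted p = 0.02) to 0.88 with *Pdia6* (rho 0.89). In the 12-month cortex r ranged more widely. It was 0.87 with *Calr*, 0.78 with *Sdf2l1* and 0.75 with *Pdia4*, but 0.02 with *Hsp90b1* (adjusted p = 0.87), -0.05 with *Dnajb11* (adjusted p = 0.72) and 0.23 with *Xbp1* (adjusted p = 0.069, rho 0.28 with an adjusted p of 0.032). These were 36 relations, and members of a library share its depth and scaling.

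A mouse high for *Hspa5* in the striatum was high in the cortex too. The residuals of the same mouse in both tissues correlated at 6 months (r = 0.71, rho = 0.63, 50 mice, 0.63 without the 2 farthest) and at 12 months (r = 0.79, rho = 0.76, 57 mice, 0.80 without the 2 farthest), with an adjusted p of 1.8e-05 for r over 20 relations. The same held for *Pdia4* (0.65 and 0.76) and *Sdf2l1* (0.58 and 0.82). It also held for *Calr* (0.71 and 0.51), *Pdia6* (0.67 and 0.70), *Creld2* (0.59 and 0.71), *Xbp1* (0.52 and 0.48) and *Manf* (0.41 and 0.57). The adjusted p of r for these members, by permutation within groups, was 0.0035 or less. Among the other members r was 0.27 at 6 months (adjusted p = 0.11) and -0.12 at 12 months (adjusted p = 0.42) for *Hsp90b1*, and 0.46 (adjusted p = 0.0028) and 0.05 (adjusted p = 0.71) for *Dnajb11*. With the mean of each group and sex removed, *Hspa5* gave 0.71 and 0.67. At 6 months the mouse with the most *Hspa5* was the same in striatum and cortex in each of the 5 groups, the highest count of any member. Among the other 9 it ran from 0 for *Manf* to 3 for *Dnajb11* and *Xbp1*. At 12 months it was the same in 3 of 6 groups, LacQ140 (F3, at 356.5 and 312.1 CPM), WT (M3, at 350.6 and 299.7 CPM) and LacQ140_8M (F4), and a different mouse in WT + IPTG, LacQ140_A and LacQ140_2M. At that age the other members had 1 to 5 such groups, with 5 for *Sdf2l1*. Whether such mice shared a litter, a day of dissection or a time of sampling is not in the labels.

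**Figure D5:**
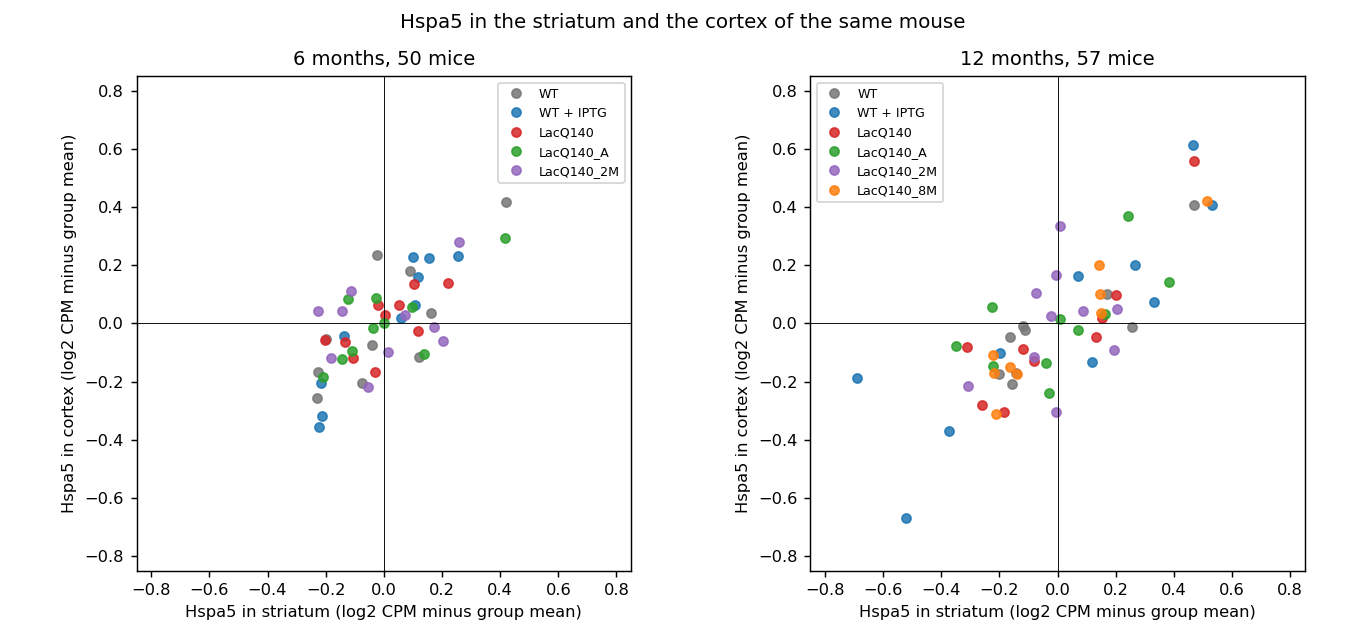
*Hspa5* in striatum (x axis) and cortex (y axis) of the same mouse, as log2 CPM minus the mean of its group, at 6 months (50 mice) and 12 months (57 mice); colors are groups. The points rise along the diagonal at both ages, with r = 0.71 and r = 0.79.

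Other genes of the pathway were read from lists of their own, beside 3.96%, 4.86%, 0.503% and 0.0667% of all genes called lower in the 6-month striatum, the 12-month striatum, the 6-month cortex and the 12-month cortex and 3.97% called higher in the 6-month striatum. Of 17 further ER folding genes, 1 was called in the 6-month striatum of LacQ140 against WT + IPTG, *Cdnf*, a paralog of *Manf*, which was higher (0.36, adjusted p = 0.0082) and is named after its value was seen, and none was called in the other 3 sets, where 6, 5 and 4 had an unadjusted p under 0.05. Their medians were -0.11, -0.02, -0.08 and -0.04 in the same order of sets. *Pdia3*, another disulfide isomerase, differed by -0.22 in the 6-month striatum (adjusted p = 0.0016) and by -0.01 in the 12-month striatum (adjusted p = 0.99). None of 10 genes of ER-associated degradation was called in any set, with 2, 5, 1 and 3 at an unadjusted p under 0.05. Among 15 sensors and factors, *Atf6* was called lower in the striatum at both ages (-0.31, adjusted p = 0.00021, and -0.62, adjusted p = 4.1e-14), and its effect differed between striatum and cortex at 12 months (-0.64, adjusted p = 0.0013). *Ern1*, which encodes the sensor that splices *Xbp1* mRNA (0.34, adjusted p = 0.0017), and the stress factor *Atf3* (0.93, adjusted p = 0.0015) were called higher in the 6-month striatum. At 12 months 5 of the 15 were called lower in striatum, among them *Mbtps1*, the protease that cleaves ATF6 (-0.27, adjusted p = 1.2e-06), and *Trib3* (-0.86, adjusted p = 3.9e-05), and none was called in cortex at either age, where 3 and 4 had an unadjusted p under 0.05. Of 10 cytosolic heat shock genes, 1, 5, 1 and 0 were called lower in the 4 sets, and *Chordc1*, an HSP90 partner, was lower in the first 3 (-0.77, -0.48 and -0.53).

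The genes whose residuals followed the mean of the members most closely were ranked over 12442 genes by the median r of the 4 sets. Those nearest were *P4ha1*, a collagen prolyl hydroxylase of the ER (0.77), and *Stip1* (0.75), *Hspa8* (0.71) and *Dnaja4* (0.71), chaperones or cochaperones of the cytosol, and *Otub2* (0.69), a deubiquitinase. Among the members, each against the mean of the other 9, the median r ran from 0.86 for *Hspa5* to 0.44 for *Hsp90b1*. *Pdia3* ranked 41, *Hyou1* 145 and *Herpud1* 305. In LacQ140 against WT + IPTG, *P4ha1* was called lower in the 6-month striatum (-0.66, adjusted p = 3.63e-06), the 12-month striatum (-0.71, adjusted p = 4.85e-05) and the 6-month cortex (-0.48, adjusted p = 0.00472), and differed by -0.25 in the 12-month cortex (adjusted p = 0.56). In WT mice of the 12-month striatum it was also called higher with IPTG alone (0.55, adjusted p = 0.0497), an effect that differed between females and males by 0.93 (adjusted p = 0.00721), and the LacQ140 comparison shares those WT + IPTG libraries. The LacQ140 effect on *P4ha1* was called as different between striatum and cortex at 12 months (-0.42, adjusted p = 0.000159), but not at 6 months (-0.20, adjusted p = 0.157). *Otub2* was called in the 6-month cortex (-0.41, adjusted p = 0.00196). In the striatum it passed the p threshold but missed the fold bound at 6 months (-0.22, adjusted p = 0.00484) and 12 months (-0.21, adjusted p = 0.0064), and the difference between the tissues at 6 months was not called (0.17, adjusted p = 0.452). *Stip1*, *Hspa8* and *Dnaja4* were called in none of the 4 sets, with adjusted p of 0.159 or more. *Cirbp* and *Rbm3*, which encode cold-inducible RNA-binding proteins, were chosen after their values were seen. *Cirbp* was called higher in LacQ140 in the 6-month striatum (0.57, adjusted p = 2.69e-05), the 12-month striatum (0.46, adjusted p = 0.00694) and the 6-month cortex (0.50, adjusted p = 0.000594), but not in the 12-month cortex (0.35, adjusted p = 0.384). *Rbm3* was called higher in the striatum at 6 months (0.37, adjusted p = 0.00661) and 12 months (0.44, adjusted p = 0.01) and differed in the cortex by 0.28 (adjusted p = 0.307) and -0.02 (adjusted p = 1.0). At neither age was the difference between the tissues called for *Cirbp* (0.06 and 0.07) or *Rbm3* (0.08, and 0.49 with an adjusted p of 0.0799). Between females and males the IPTG effect in the 12-month striatum differed by -0.87 for *Cirbp* (adjusted p = 0.00672) and by -1.02 for *Rbm3* (adjusted p = 0.000255), and the part of these genes in the members' differences was not tested.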

How the data were processed

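Total RNA of striatum and cortex was sequenced as paired-end reads on an Illumina NovaSeq instrument. The authors deposited expected counts per gene without normalization, in one table per age, and 26.79% of the values above 0 were not whole (tolerance 0.001). The build named in the submitters' processing notes is GRCm38, and the aligner and quantifier are not given in the sources used here. Gene names, positions and transcript lengths came from GENCODE vM21, which matched 54495 of 54532 genes. Tissue, age, group, sex and mouse were taken from the labels, and 0 libraries went against their sex label. In 963 pairs of libraries of one group, chi-square divided by its degrees of freedom was at least 6.46 (median 35.9), above sampling noise, so none was counted as a duplicate. Within a tissue and age each library came from a different mouse, and p-values measure the spread between mice.

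After rounding, the quasi-likelihood test of edgeR 4.0.16 with TMM scaling was run in R 4.3.3, within each tissue and age, over all genes with at least 1 count and with all groups in the fit. Tissues were compared with the mouse as a block. Intervals are the estimate ± 1.96 SE. TPM was computed from CPM and the longest transcript. Correlations and promoter searches used Python 3.11.15 and scipy 1.17.1. The edgeR step was tested on simulated counts. Alternatives were DESeq2 1.42.0, its size factors, filterByExpr, sex or the replicate number as a term, only the 2 groups compared, no fold bound and each library left out; the other WT controls, effects within each sex from a fit with a mean for each group and sex, and a length slope term (the slope of log2 CPM on log2 transcript length) were added after the data were seen. The members and the gene lists were chosen with earlier results of these data known. The named genes were the 10 members, at most the 3 of smallest p in each list, and the 5 genes nearest to the members' mean; genes outside this rule, among them *Cirbp*, *Rbm3*, *Hyou1* and *Herpud1*, were named after their values were seen.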

Additional observations from a re-analysis of the deposited data

Results flagged for a closer look

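A library stood far from the rest of its group, by Dixon's criterion at the 95% level, for 17 of 220 combinations of member, set and group, where chance gives about 1 in 20. Male M5 of LacQ140_A at 6 months accounted for 5 of them, always as the highest mouse of its group. Its *Hspa5* was 298.3 CPM in striatum (next mouse 246.2) and 215.6 CPM in cortex (next 186.7). Its *Pdia4* was 36.1 CPM in striatum (next 31.5) and 26.5 CPM in cortex (next 23.3), and its *Creld2* was 13.3 CPM in cortex (next 10.7). The same mouse thus stood high in both tissues.

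At 12 months, female F4 of LacQ140_8M was highest for *Hspa5* (351.0 CPM, next 272.8) and *Pdia6* (93.0 CPM, next 81.2) in striatum and for *Calr* (357 CPM, next 307) in cortex. The WT male M3 was highest for *Xbp1* in striatum (120 CPM, next 95.2) and for *Hspa5* in cortex (299.7 CPM, next 247.7). In the cortex, the LacQ140_2M male M4 was highest for *Pdia4* (30.3 CPM, next 24.3) and *Pdia6* (103 CPM, next 88.4), the LacQ140 female F3 for *Calr* (397 CPM, next 319) and the LacQ140_A male M3 for *Sdf2l1* (27.1 CPM, next 20.9). The LacQ140_2M male M5 was the one low library, with 5.56 CPM of *Sdf2l1* in striatum. At 6 months the WT female F2 was highest for *Creld2* in striatum (23.1 CPM, next 20.1) and the LacQ140 female F3 for *Sdf2l1* in cortex (11.3 CPM, next 7.91).

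In the 12-month striatum, the effect of WT + IPTG against WT differed between females and males by a log2 of 0.95 for *Hspa5* (adjusted p = 0.002), 0.90 for *Sdf2l1* (adjusted p = 0.0077), 0.82 for *Pdia4* (adjusted p = 0.0043) and 0.62 for *Manf* (adjusted p = 0.012), by edgeR's test of the difference itself. The test was chosen after these values were seen.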

How the results depend on the processing

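Of the counts of called members, DESeq2 moved 1 of 22 beyond 1.5 times, DESeq2's size factors 0 of 34, filterByExpr 1 of 32, sex as a covariate 1 of 24, and no fold bound, only the 2 groups, the replicate block and the length slope 3 each. For LacQ140_A against WT in the 6-month cortex, 2 members were called by DESeq2 and 2 with filterByExpr, and 0 with only the 2 groups in the fit or with the replicate block. Without the fold bound, 1 member was called for LacQ140_A and 1 for LacQ140_2M against LacQ140 in the 6-month striatum, and 8 between the tissues of WT mice at 6 months. For WT + IPTG against WT in the 12-month striatum the count was 0 with only the 2 groups, 0 with the replicate block, 1 with sex and 1 with the length slope. With only the 2 groups, LacQ140_A against WT in the 6-month striatum gave 2. In the 12-month cortex, LacQ140 against WT + IPTG gave 1 with the replicate block and 4 with the length slope, and WT + IPTG against WT gave 6 with the length slope. With WT as the control, LacQ140 had 5, 0, 3 and 0 members called (6-month striatum, 12-month striatum, 6-month cortex, 12-month cortex), and 1, 3 and 0 in the last 3 with the mean of both WT groups. Within females, WT + IPTG against WT gave 9 members in the 12-month striatum and 6 in the 12-month cortex, and LacQ140 against WT + IPTG gave 5 in the 6-month striatum and 1 in the 6-month cortex. Within males, WT + IPTG against WT gave 0 in the 12-month striatum, where *Hspa5* changed sign to -0.02, and LacQ140 against WT + IPTG gave 2 in the 12-month striatum and 0 in the cortex at either age. For LacQ140, *Hspa5* in the 12-month striatum changed sign with WT as the control, to 0.02. The length slope, both other controls and the split by sex were chosen after seeing the data. The cause of these moves was not tested.

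With 1 library left out, LacQ140 against WT + IPTG gave 8 to 8, 5 to 8, 3 to 7 and 0 to 3 members in the same order, WT + IPTG against WT in the 12-month striatum 0 to 5, the difference between the sexes in that effect 4 to 7, and LacQ140_A against WT 2 to 5 in the 6-month striatum and 0 to 4 in the 6-month cortex. The mean correlation of same-numbered libraries was 0.057, 0.058, 0.065 and 0.08 in that order, against 0.11, 0.083, 0.103 and 0.038 for other numbers of the same sex. Same-numbered libraries were thus no more alike than others, except in the 12-month cortex. There 12 of 60 libraries matched their own number best, against 6 of 50, 5 of 57 and 8 of 50 in the other sets. The replicate block moved no other count beyond 1.5 times.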
